A study of Mus musculus with 4 samples.

Results

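The genes described here are 41 genes of DNA replication and S phase, measured by RNA-seq in hematopoietic stem cells from mouse bone marrow. They were given as a list of symbols by their known roles, with earlier results of these data known. All 41 were found among the 24016 gene symbols of the count tables. Each was represented by its most abundant transcript. The 2 groups had 2 libraries each, from C57BL/6 mice aged 4 months. The wild-type group (WT) carried no transgene, per the genotype label. The NHD13 group carried a NUP98-HOXD13 fusion transgene. These mice model myelodysplastic syndrome, and in the published line the transgene is driven in blood cells by Vav regulatory sequences; the labels do not name the promoter. Both groups were sorted for the same surface phenotype, lineage-negative, Sca-1+, c-Kit+, CD34-, Flt3- and CD150+. Separate animals, or separate pools of animals, are not named for the replicates, so the p-values capture just the variation among these 4 libraries, which may be technical.

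Before a cell copies its DNA, the origin recognition complex, Cdc6 and Cdt1 load rings of the MCM helicase onto origins in G1. At the start of S phase, cyclin E with Cdk2, and the factors Cdc45, GINS and Mcm10, turn these rings into active helicases, and polymerases, the sliding clamp PCNA and ligase follow behind them. Many of these genes are targets of E2F transcription factors, so their mRNA is high in cycling cells and low in quiescent ones. Adult hematopoietic stem cells are largely quiescent, and their progenitors cycle more.

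Letters that E2F factors are known to prefer were searched for in the promoters of these genes, because the members share this reported regulation. RefSeq promoter windows on GRCm38.p6, from 250 bases before to 50 after a transcription start, were at hand for 35 of the 41 genes. Windows were not at hand for Mcm4, Gins1, Gins2, Ccne2, Prim2 and Pole. The 5 stretches below show the patterns found, and were chosen after their values were seen. E2f2 had the largest fold change of the 41 genes and Pold1 passed the test between groups; Mcm5 and Mcm6 belong to the helicase; Rfc3 had a log2 fold change near 0. Capitals mark a match or overlapping matches to TTTCGCGC, TTTGGCGC or TTTCCCGC on either strand, with flanks of up to 15 bases, read 5′ to 3′ on the gene's strand.
Mcm6 (chr1:128359730-128359830, minus strand): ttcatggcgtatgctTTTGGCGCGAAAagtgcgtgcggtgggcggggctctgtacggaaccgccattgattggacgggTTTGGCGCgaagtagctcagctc
Mcm5 (chr8:75109341-75109382, plus strand): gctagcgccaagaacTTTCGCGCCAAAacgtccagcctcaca
Rfc3 (chr5:151651186-151651233, minus strand): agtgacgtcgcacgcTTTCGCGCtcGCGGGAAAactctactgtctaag
E2f2 (chr4:136172298-136172323, plus strand): tttggcggcatatagTTTGGCGCtaa
Pold1 (chr7:44548766-44548791, minus strand): gcggcgtatcttgtgGCGGGAAAagc

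With the first transcribed base as 1 and the base before it as -1, the matches lay at -110 to -40 in Mcm6, -153 to -142 in Mcm5, -10 to 8 in Rfc3, and 40 to 47 in both E2f2 and Pold1. The 12 letters matched in Mcm5, TTTCGCGCCAAA, are the reverse complement of the 12 letters of the upstream match in Mcm6, TTTGGCGCGAAA. In each, 2 of the searched motifs overlap on opposite strands. Of the 35 members with a window, 15 held at least 1 of these letters or of TTTGCCGC, the fourth form searched, which none of them held. That is 42.9%, against 2.60% of the 27025 symbols in the RefSeq promoter table. Among 65 further genes of the same pathway, 17 of the 52 with a window held a match. The CHR letters TTTGAA, known from promoters of mitosis genes, were in 6 of the 35 members (17.1%) and in 20.2% of all symbols, and CCAAT was in 22 members (62.9%) and 41.1% of all symbols. A match is a description of these letters and was not measured as a binding site. The median log2 fold change, given below for each gene, was 0.66 in the 15 members with an E2F match, 0.52 in the 20 without, and 0.66 in the 6 that had no window. Values ran from 0.08 to 2.04 with a match and from -0.44 to 1.54 without.

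The comparison asked how the sorted stem cells of NHD13 marrow differ from those of WT marrow. Levels are in CPM, counts per 1000000 after scaling of the libraries, and differences are log2 fold changes of NHD13 against WT with their standard errors (SE), from edgeR's quasi-likelihood test across 14853 genes. A gene was called at a Benjamini-Hochberg adjusted p under 0.05. All 41 members passed the filter on low counts, and 40 had a log2 fold change above 0, with a median of 0.61 against 0.00 for all genes tested. Both NHD13 libraries lay above both WT libraries in 35 members, where 30.1 percent of all genes did so, and below them in 1, Chaf1b, where 30.3 percent did. The groups overlapped in Rrm2, Ccne1, Orc1, Orc6 and Pole.

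Only 2 members passed the test on all 4 libraries, both higher: the cyclin gene Ccne2 and the polymerase gene Pold1. Of all genes tested 4.28 percent were called, and 2.07 percent were called higher, so the share of members called was close to the background. At an unadjusted p under 0.05, 29 members were higher and 1 was lower, and 12.9 percent of all genes were higher at that level. At an adjusted p under 0.10, 15 members were higher, against 5.98 percent of all genes. In bulk RNA a larger share of cells in S phase and more RNA per cell cannot be told apart.

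**Figure D1:**
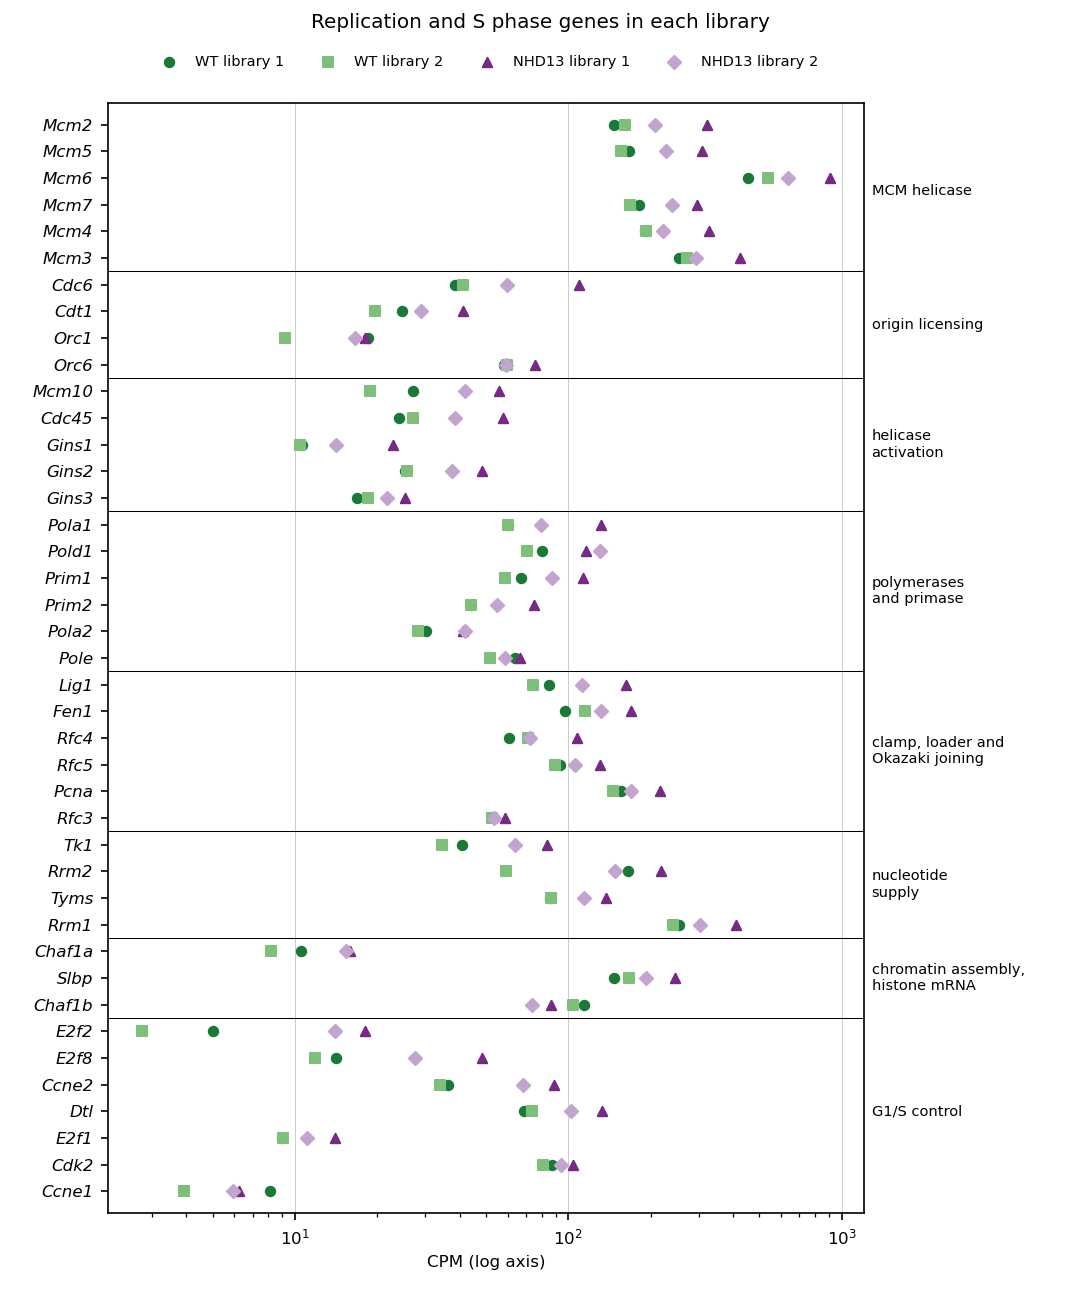
Level of each of the 41 genes in each library, in CPM on a log axis, grouped by role and ordered within a role by fold change; each symbol is 1 library. NHD13 library 1 (dark triangles) lies farthest to the right in most rows, and Chaf1b is the row in which both NHD13 libraries lie to the left of both WT libraries.

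The genes that control entry into S phase spanned the widest range of the roles, from a log2 fold change of 0.02 in Ccne1 to 2.04 in E2f2. Ccne2, a cyclin E that activates Cdk2, was at 36.3 and 33.9 CPM in the WT libraries and 88.6 and 68.3 CPM in the NHD13 libraries. It rose by 1.16 ± 0.16 on the log2 scale, 2.24-fold, with an adjusted p of 0.0356. Its groups were well apart, with each pair within 1.30-fold. The call was lost without NHD13 library 1 (adjusted p 0.0653), and without WT library 1 (0.221) or WT library 2 (0.207), where edgeR called no gene at all. It was also lost with the replicate number as a block (0.0667), while the log2 fold change stayed between 0.97 and 1.34 under all 14 alternatives.

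The other cyclin E gene, Ccne1, was at 8.07 and 3.94 CPM in WT and 6.23 and 5.94 CPM in NHD13. Both NHD13 values lay between the WT values, and the log2 fold change was 0.02 ± 0.40, with a sign that turned with library totals only and without WT library 2 or NHD13 library 1. Their kinase gene Cdk2 was at 86.8 and 80.6 CPM in WT and 104 and 94.4 CPM in NHD13, a log2 fold change of 0.25 ± 0.10 (adjusted p 0.212). The cyclin E genes thus had different levels and log2 fold changes in these 4 libraries, and the difference between them was not tested.

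E2f2, which encodes an activating E2F factor, was at 5.01 and 2.76 CPM in WT and 17.99 and 14.0 CPM in NHD13. Its log2 fold change of 2.04 ± 0.36 was the largest of the 41 genes, and its adjusted p of 0.0523 missed the threshold. It was called by DESeq2 (9.87e-06), by limma-voom (0.0488), without a filter on low counts (0.0161) and under a stricter filter (0.0376). E2f8, an atypical E2F that represses E2F targets and is itself made in S phase, was at 14.1 and 11.8 CPM in WT and 48.2 and 27.4 CPM in NHD13 (1.54 ± 0.30, adjusted p 0.0628). E2f1, another activator, had 0.47 ± 0.21, with 8.99 and 9.03 CPM in WT against 13.97 and 11.1 CPM in NHD13. Both libraries of NHD13 lay above WT for these 3 genes. Of the E2F genes outside the list, E2f4 and E2f5 also lay higher (0.31 ± 0.09 and 0.29 ± 0.16), while the groups overlapped for E2f3 (-0.0046), E2f6 (-0.0053) and E2f7 (0.40 ± 0.31). None of these 5, which were named after their values were seen, was called. Dtl, the substrate adaptor of the ubiquitin ligase that destroys Cdt1 on replicating DNA, was at 69.1 and 73.5 CPM in WT and 132 and 103 CPM in NHD13 (0.72 ± 0.15, adjusted p 0.0673).

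All 6 subunits of the MCM helicase were higher in both NHD13 libraries than in both WT libraries, with log2 fold changes from 0.45 to 0.78. EdgeR called none of them, though 5 had an unadjusted p under 0.05. Calls numbered 4, all higher, with DESeq2 and 0 with limma-voom. Of all genes tested, DESeq2 called 7.92 percent higher, and limma-voom called 619 of 14853 in either direction. At an unadjusted p under 0.05, 12.9 percent of all genes were higher in edgeR's fit. The counts given for the roles below have these same shares as their background. Mcm6 was at 454 and 536 CPM in WT and 904 and 639 CPM in NHD13 (0.64 ± 0.19). Mcm2 was at 147 and 161 CPM in WT and 321 and 208 CPM in NHD13 (0.78 ± 0.22, adjusted p 0.112). Mcm5 had 0.73 ± 0.16, Mcm7 0.61 ± 0.13, Mcm4 0.51 ± 0.20 and Mcm3 0.45 ± 0.19. In each of the 6, NHD13 library 1 was higher than NHD13 library 2, by 1.23-fold in Mcm7 to 1.54-fold in Mcm2. The WT libraries were within 1.18-fold of each other.

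The licensing factors that load this helicase did not share 1 pattern. Cdc6, the loader that binds origins in G1, was at 38.5 and 41.2 CPM in WT and 110 and 59.9 CPM in NHD13 (1.09 ± 0.30, adjusted p 0.105). NHD13 library 1 was 1.83 times NHD13 library 2, the widest gap between these libraries among the 41 genes. Cdt1, its partner, was at 24.6 and 19.7 CPM in WT and 41.2 and 28.96 CPM in NHD13 (0.66 ± 0.23). Of the origin recognition complex, Orc6 had 0.19 ± 0.15. Orc1 was at 18.5 and 9.20 CPM in WT and 17.99 and 16.5 CPM in NHD13, so that the WT libraries differed by 2.01-fold and enclosed the NHD13 values. Its log2 fold change of 0.32 ± 0.35 was below 0 without WT library 2. EdgeR called none of the 4, and 2 had an unadjusted p under 0.05. The single DESeq2 call was Cdc6, and limma-voom made 0.

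Among the factors that activate the helicase, all 5 were higher in both NHD13 libraries, with a median log2 fold change of 0.81. Mcm10, which binds the loaded helicase and polymerase alpha, was at 26.99 and 18.9 CPM in WT and 55.6 and 41.8 CPM in NHD13 (1.09 ± 0.24, adjusted p 0.0746). Cdc45, a part of the active helicase, was at 24.0 and 26.9 CPM in WT and 57.5 and 38.6 CPM in NHD13 (0.91 ± 0.22, adjusted p 0.0867). Of the GINS complex, which completes that helicase, Gins1 had 0.81 ± 0.27, Gins2 0.76 ± 0.16 and Gins3 0.41 ± 0.16. All 5 had an unadjusted p under 0.05 and edgeR called none. Mcm10, Cdc45 and Gins2 were called by DESeq2, and 0 by limma-voom.

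Of the polymerase and primase genes 1 of 6 was called by edgeR and by limma-voom, and 5 by DESeq2, all but Pole. Pold1, the catalytic subunit of polymerase delta, which copies the lagging strand, was at 80.4 and 70.6 CPM in WT and 116 and 130 CPM in NHD13. It rose by 0.71 ± 0.12 on the log2 scale, 1.63-fold, with an adjusted p of 0.0474. Each group was tight, with libraries within 1.14-fold. The adjusted p was 0.0936 and 0.0801 without NHD13 library 1 or 2, and 0.22 and 0.226 without WT library 1 or 2, where edgeR called no gene at all; the log2 fold change was 0.62 to 0.80 in these fits. Library totals (0.0645), summed transcripts (0.062) and the replicate block (0.111) also ended the call.

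Pole, the catalytic subunit of polymerase epsilon, which copies the leading strand, was at 63.9 and 51.7 CPM in WT and 66.8 and 58.7 CPM in NHD13. The groups overlapped, its log2 fold change was 0.12 ± 0.15, and it was below 0 without WT library 2. The 4 genes of the polymerase alpha and primase complex, which starts each new strand with a primer, were all higher in both NHD13 libraries. Pola1 had 0.81 ± 0.25 and Prim1 0.67 ± 0.16, while Prim2 had 0.56 ± 0.17 and Pola2 0.51 ± 0.12. Pola2 was at 30.3 and 28.2 CPM in WT and 41.3 and 41.98 CPM in NHD13. It and Pold1 were the 2 members in which NHD13 library 2 was the higher of the NHD13 pair.

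**Figure D2:**
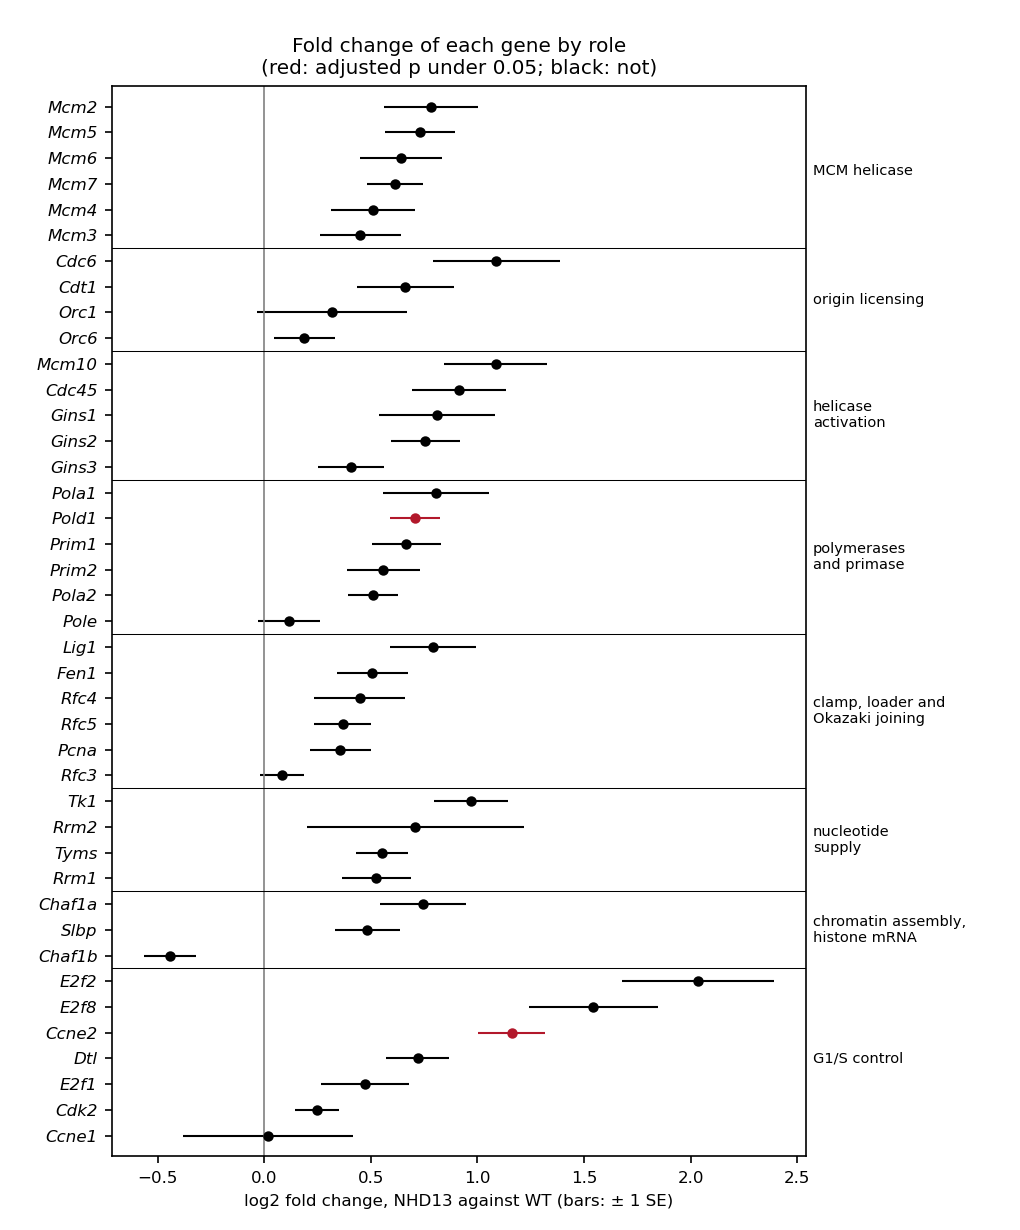
Log2 fold change of each of the 41 genes, NHD13 against WT, with bars of 1 SE from edgeR's fit on 4 libraries, grouped by role. Ccne2 and Pold1 (red) passed an adjusted p of 0.05; Chaf1b is the gene left of 0, and Ccne1, Rfc3, Pole and Orc1 have bars that cross 0.

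The sliding clamp and the genes that load it and join DNA fragments had log2 fold changes from 0.08 to 0.79. Pcna, the clamp that holds polymerases on DNA, was at 156 and 146 CPM in WT and 217 and 170 CPM in NHD13 (0.36 ± 0.14, adjusted p 0.198). The clamp loader genes had log2 fold changes of 0.45 ± 0.21 in Rfc4, 0.37 ± 0.13 in Rfc5 and 0.08 ± 0.10 in Rfc3. Rfc3 was at 53.3 and 52.7 CPM in WT and 58.8 and 53.7 CPM in NHD13, and NHD13 library 2 exceeded the higher WT library by a small margin. Lig1, the ligase that seals Okazaki fragments, was at 84.7 and 74.4 CPM in WT and 163 and 112 CPM in NHD13 (0.79 ± 0.20, adjusted p 0.0947). Fen1, the nuclease that trims their flaps, had 0.51 ± 0.16. All 6 genes of this role lay higher in both NHD13 libraries and edgeR called none, although 3 had an unadjusted p under 0.05. Lig1 and Fen1 were called by DESeq2, and 0 by limma-voom.

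Enzymes that supply nucleotides followed, with 3 of 4 higher in both NHD13 libraries. Tk1, the thymidine kinase of S phase, was at 40.7 and 34.5 CPM in WT and 83.3 and 64.0 CPM in NHD13 (0.97 ± 0.17, adjusted p 0.0541). Tyms, thymidylate synthase, was at 85.4 and 86.2 CPM in WT and 138 and 114 CPM in NHD13 (0.55 ± 0.12, adjusted p 0.0744). Of ribonucleotide reductase, the large subunit gene Rrm1 had 0.53 ± 0.16. The small subunit gene Rrm2 was at 165 and 59.4 CPM in WT and 218 and 149 CPM in NHD13, and its WT libraries differed by 2.78-fold, the widest WT gap of the 41 genes. Its log2 fold change was 0.71 ± 0.51, or 1.62 without WT library 1 and 0.16 without WT library 2. EdgeR called no gene of this role, and 3 had an unadjusted p under 0.05. Tk1, Tyms and Rrm1 were called by DESeq2, and 0 by limma-voom.

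Chromatin assembly gave the single gene of the list below 0. Chaf1b, the middle subunit of the complex CAF-1 that places histones on new DNA, was at 114 and 104 CPM in WT and 86.8 and 73.4 CPM in NHD13. Its log2 fold change was -0.44 ± 0.12 (adjusted p 0.109, or 0.0346 by DESeq2, where 9.28 percent of all genes were called lower). Chaf1a, the large subunit of the same complex, was at 10.5 and 8.18 CPM in WT and 15.9 and 15.4 CPM in NHD13 (0.75 ± 0.20, adjusted p 0.104). DESeq2 called Chaf1a higher (0.0349), and also Slbp (0.0395), and limma-voom called 0 of the 3. The subunits of CAF-1 thus lay in opposite directions in both NHD13 libraries, and the difference between them was not tested. Slbp, which binds the stem-loop of histone mRNA, had 0.48 ± 0.15.

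The transcripts of highest level per length were the same in both groups. In CPM per kilobase, Mcm6 stood first with a mean of 170 in WT and 265 in NHD13, followed by Pcna (99.5 and 127), Mcm3 (86.7 and 119) and Slbp (82.3 and 115). E2f2 was the lowest in WT at 0.82 CPM per kilobase, against 3.37 in NHD13. Chaf1b was seventh in WT, at 56.6, and at rank 19 in NHD13, at 41.7. Lengths were those of the matching GENCODE transcripts, which need not be the models that were counted, and neighbours in this order often differed by less than their libraries did.

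The NHD13 libraries differed from each other across the list. NHD13 library 1 was the higher of the pair in 39 of 41 members, where it was so in 47.8% of all genes tested. Divided by the WT mean, the members' median level was 1.70 in the first NHD13 library and 1.32 in the second, against 0.985 and 0.9999 for all genes. In WT, library 1 was the higher in 26 members and library 2 in 15. The median log2 fold change of the 41 genes was 0.77 without NHD13 library 2 and 0.41 without NHD13 library 1, and it was 0.57 without WT library 2 and 0.67 without WT library 1. With 1 library left out, a group has a single library, which is assumed to vary like the other group, so the number of calls also depends on which pair supplies the spread. EdgeR called 16 members, all higher, without NHD13 library 2 (2.88 percent of all genes were called higher in that fit). It called 0 without NHD13 library 1, with 21 members at an unadjusted p under 0.05, where 17.6 percent of all genes were. Without WT library 1 or WT library 2 it called 0 members and 0 genes in all, with 17 and 14 members at an unadjusted p under 0.05, against 15.4 and 16.3 percent of all genes.

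**Figure D3:**
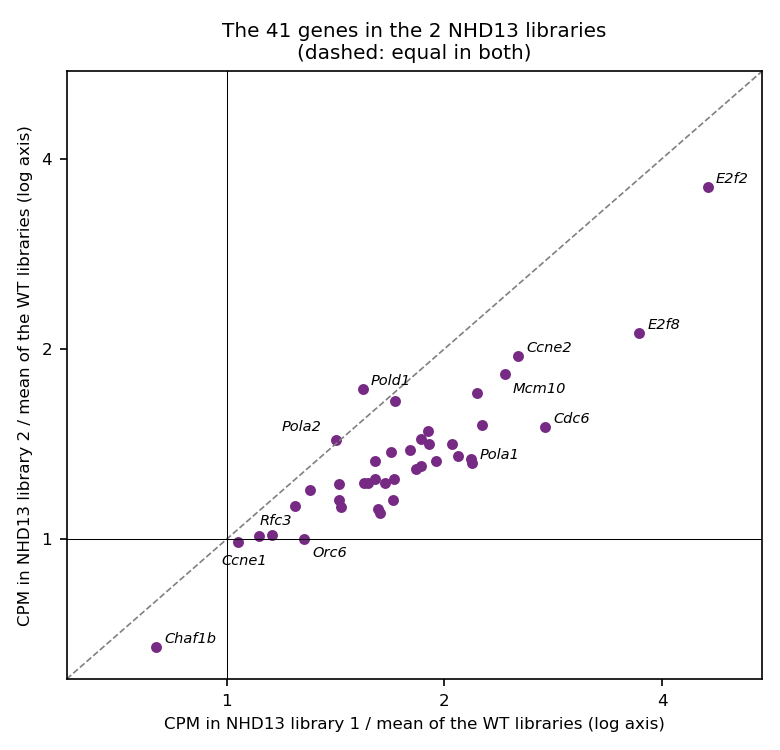
CPM of each of the 41 genes in NHD13 library 1 (horizontal) and NHD13 library 2 (vertical), each divided by the mean of the WT libraries, on log axes with equality dashed. All points but Pold1 and Pola2 lie below the dashed line, and both libraries of E2f2, E2f8, Ccne2 and Mcm10 lie well above 1. The axes share the WT mean, so the alignment of the points is in part given.

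Other settings also moved the count of calls. DESeq2 called 24 members higher and 1 lower, and 7.92 percent of all genes higher. Without a filter on low counts edgeR called 12 members, all higher, against 2.56 percent of all genes. The log2 fold changes themselves moved little between tools, with a median of 0.60 to 0.61 for the members under every setting that kept all 4 libraries.

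Markers of other cell types also differed between the libraries. Summed over 15 granulocyte and monocyte markers, the level was 677 and 602 CPM in WT, 4069 CPM in NHD13 library 1 and 1281 CPM in NHD13 library 2, and 8 of the 15 were over 5 times higher in NHD13 library 1 than in NHD13 library 2. These 8 were S100a8, S100a9, Ngp, Camp, Ltf, Lcn2, Fcnb and Ly86. No marker of this list was at 0, and 4 were called, all higher: Mpo, Elane, Ctsg and Ms4a3. Prtn3 went the other way, at 270 and 273 CPM in WT and 229 and 165 CPM in NHD13. Its log2 fold change was -0.47 ± 0.17, and it was not called. Mpo had 49.0 and 39.2 CPM in WT and 709 and 587 CPM in NHD13, so it was high in both NHD13 libraries. The progenitor receptor gene Flt3 was at 10.4 and 15.4 CPM in WT, and at 58.96 and 4.33 CPM in NHD13 libraries 1 and 2. So the library with the highest replication genes was also that with the highest summed level of granulocyte markers and the highest Flt3. The progenitor markers Cd48, Flt3 and Cd34, none of them at 0, did not share 1 direction. Cd48 was at 4.83 and 5.06 CPM in WT and 267 and 223 CPM in NHD13, and was the 1 called of the 3. Cd34 was at 120 and 138 CPM in WT and 51.6 and 21.4 CPM in NHD13, lower in both NHD13 libraries. The part of these cells in the result was not tested.

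Of 8 T and NK cell markers, Cd3e, Cd3g, Lck and Gzmb (4 of 8) were over 5 times higher in NHD13 library 2 than in NHD13 library 1, with Cd3e at 36.3 against 0.73 CPM. Nkg7, the 1 called marker of this list, had its higher NHD13 value in library 1, at 153 against 82.2 CPM, and 18.9 and 18.04 CPM in WT. Cd3d and Cd4 had log2 fold changes of -0.27 and -0.49, and Cd8a was at 0 in NHD13 library 1 and WT library 2. The summed level was 39.1 and 38.7 CPM in WT and 175 and 279 CPM in NHD13. B cell markers summed to 74.9 and 82.5 CPM in WT and 91.0 and 98.0 CPM in NHD13, with Pax5 at 0 in both WT libraries. The 5 mast cell and basophil markers did not share 1 direction. In NHD13 libraries 1 and 2, Ms4a2 was at 111 and 4.45 CPM and Cpa3 at 21.3 and 107 CPM, above both WT libraries. Fcer1a, the 1 called marker of this list, was lower, at 0.92 and 1.70 CPM in WT and 0 and 0.02 CPM in NHD13. Mcpt8 and Prss34 had log2 fold changes of -1.26 and -0.75, with groups that overlapped. This list summed to 26.1 and 8.02 CPM in WT and 139 and 118 CPM in NHD13. Erythroid markers summed to 274 and 228 CPM in WT and 241 and 342 CPM in NHD13. For megakaryocyte and platelet markers the sums were 447 and 400 CPM in WT and 383 and 468 CPM in NHD13. Stroma and endothelium markers summed to 142 and 99.95 CPM in WT and 117 and 137 CPM in NHD13, with Sparc at 35.6 CPM in the first WT library against 0.60 CPM in the second. In NHD13 library 1, 2 of these 9 markers, Col3a1 and Lepr, were at 0. WT library 1 was also the higher WT library for Rrm2, Ccne1 and Orc1, the members whose WT libraries differed most. The part of any of these cell types in the members' values was not tested. The genes that define the sort were present, with Kit between 991 and 1271 CPM and Slamf1, which encodes CD150, between 117 and 143 CPM. Ly6a, which encodes Sca-1, was at 273 and 200 CPM in WT and 131 and 77.7 CPM in NHD13. It lay lower in both NHD13 libraries but was not called (-1.18 ± 0.30, adjusted p 0.0921). Kit also lay lower in both (-0.18 ± 0.11), while the groups overlapped for Slamf1. The 9 stem cell markers summed to 4300 and 4548 CPM in WT and 2743 and 3159 CPM in NHD13, and Hlf, a stem cell transcription factor, fell by 1.72 ± 0.24 (adjusted p 0.0373).

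Further genes of replication and S phase that are not members numbered 65. Of these, 57 had a log2 fold change above 0 and 8 below, with a median of 0.44. In both NHD13 libraries 53 lay higher and 4 lower, against 30.1 and 30.3 percent of all genes. Only 1, Fbxo5, was called, higher, where 2.07 percent of all genes were called higher. Fbxo5 encodes an inhibitor of the anaphase-promoting complex in S phase, and was at 31.5 and 30.5 CPM in WT and 67.5 and 52 CPM in NHD13 (0.95 ± 0.16, adjusted p 0.049). Its adjusted p was over 0.05 in 10 of 14 alternatives. The next smallest p-values belonged to Cdc7, the kinase that fires origins (0.75 ± 0.15), Ticrr, which helps Cdc45 bind (1.37 ± 0.29), and Uhrf1, which keeps DNA methylation through replication (0.83 ± 0.18). Their adjusted p ran from 0.0627 to 0.0693.

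Below 0, the smallest p-values were those of Pold4, a small subunit of polymerase delta (-0.32 ± 0.10), Rrm2b, the ribonucleotide reductase subunit used outside S phase (-0.34 ± 0.13), Pold2 (-0.07 ± 0.09) and Mcm9 (-0.15 ± 0.21). None of these was called. Rrm2b was at 33.2 and 31.1 CPM in WT and 24.7 and 26.2 CPM in NHD13, so that its groups did not overlap.

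For 20 genes of mitosis, the later part of the cycle, the median log2 fold change was 1.001 and 8 were called, all higher, in the same fit. Of all genes, 2.07 percent were called higher in that fit and 7.92 percent by DESeq2. All 20 lay higher in both NHD13 libraries, where 30.1 percent of all genes did so. Calls numbered 1 without NHD13 library 1, 0 without either WT library, 1 with the replicate block and 17 by DESeq2. Without NHD13 library 2 there were 8, of which 5 were among the 8 called on all 4 libraries. The median log2 fold change without 1 library was between 0.85 and 1.23. Top2a, the topoisomerase that separates sister DNA, was at 258 and 223 CPM in WT and 610 and 428 CPM in NHD13. Whether the mitosis genes and the 41 replication genes differ in their change was not tested. WT library 1 was the higher WT library in all 20 mitosis genes and in 26 of the 41 replication genes.

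**Figure D4:**
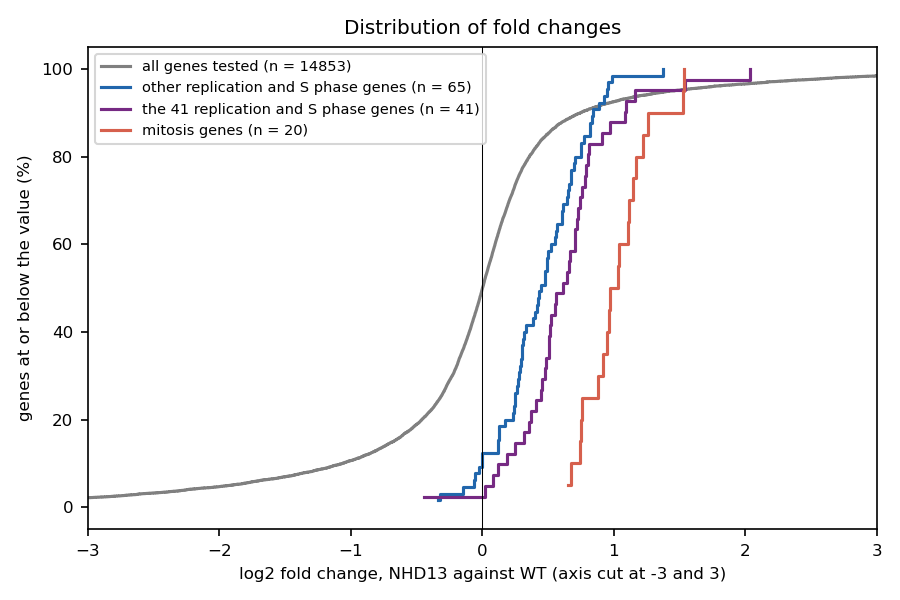
Share of genes at or below each log2 fold change, NHD13 against WT, for the 41 genes, 65 further replication genes, 20 mitosis genes and all 14853 genes tested. Genes far out on either side lie beyond the axis. The medians are 0.61, 0.44, 1.001 and 0.00 in that order, and the curve of the 41 genes reaches from -0.44 to 2.04.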

How the data were processed

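RNA from sorted marrow cells was amplified with a low-input kit and sequenced as paired ends, per the labels' protocols. Bowtie 0.12.2 and the mouse build mm9 are named in the submitters' processing notes. For the counting program, strand and multiply aligned reads, nothing is given in the sources used here. Overlapping genes may therefore share reads: by GRCm38.p6 RefSeq spans, 13 of the 41 members overlap a protein-coding gene, Ccne2 (with Ints8) among them, and Pcna and Tyms have named pseudogenes. The authors deposited raw counts, whole numbers, for 33018 RefSeq transcripts. For each symbol the transcript with the highest total was used; 28 members had 1 transcript. Libraries then held 35025974 to 48423689 counts, and libraries of a group differed by more than counting noise (mean chi-square per gene 33.8 in WT and 61.6 in NHD13).

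The test was edgeR's robust quasi-likelihood test (edgeR 4.0.16 in R 4.3.3) after filterByExpr and TMM on all 4 libraries, with Benjamini-Hochberg adjustment over 14853 genes. SE is the size of a log2 fold change divided by the square root of F. Members and lists were chosen with earlier results of these data known. Every member is named; of the 65 further genes, those called and the 4 smallest p-values in each direction. Alternatives were DESeq2 1.42.0, limma-voom (limma 3.58.1), other scalings, filters and a non-robust fit, a threshold of 0.10, summed transcripts, omission of each library in turn, and a block for the replicate number. A crossed block was added after seeing the data. The test was also run on simulated counts, drawn separately for each gene, with no difference of a library shared by many genes. That run cannot show how the calls fare under such a shared difference.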

Additional observations from a re-analysis of the deposited data

How the results depend on the processing

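The median log2 fold change of the 41 genes was 0.41 to 0.77 under the 14 alternatives. Of the single-gene values of members, 506 kept direction and side of the threshold, 52 newly passed it, 11 no longer passed it and 5 turned sign: Ccne1 with library totals only (-0.0014), without WT library 2 (-0.41) and without NHD13 library 1 (-0.00665), and without WT library 2 also Orc1 (-0.096) and Pole (-0.026). Leaving out 1 library gave -0.41 to 0.62 for Ccne1, -0.096 to 0.90 for Orc1 and -0.026 to 0.27 for Pole. The widest such range was that of Rrm2, from 0.16 to 1.62. None of these 4 genes was called. The cause of these changes was not tested.

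Called members numbered 2 of 41, and 25 by DESeq2, 12 without a filter, 5 with the stricter filter, 15 at an adjusted p of 0.10, and 1 each with library totals and summed transcripts. Leaving out 1 library gave 0 to 16. All genes called numbered 636, and 2607 by DESeq2, 1138 without a filter, 1066 with the stricter filter, 402 with summed transcripts and 1923 at an adjusted p of 0.10. Leaving out 1 library gave 0 to 990. Of the 65 further replication genes 1 was called, and 23 by DESeq2, 5 without a filter, 2 with the stricter filter, 14 at an adjusted p of 0.10, and 0 with DESeq2 size factors, library totals, limma-voom, the non-robust fit or summed transcripts. Leaving out 1 library gave 0 to 9. By limma-voom, 32 of the 65 had an unadjusted p under 0.05, against 3885 of all 14853 genes in either direction.

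The replicate number as a block called 0 members, 107 genes in all and 0 further replication genes. With this block 28 members had an unadjusted p under 0.05, against 3088 of all 14853 genes in either direction. The labels give no shared batch. Deviations of same-numbered libraries from their group means correlated at -0.21 over 14853 genes, and those of crossed numbers at 0.21. With 2 libraries in a group these values mirror each other by construction, so they cannot show whether a batch was shared. The crossed block, chosen after seeing the data, called 2 members, 2 further genes and 647 genes in all.

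Members had 101 to 31311 counts per library. Fits without 1 library take their spread from the other group.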
